A study of Brassica rapa subsp. pekinensis with 10 samples.

Results

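Chinese cabbage (Brassica rapa subsp. pekinensis) held in cold for 60 min was compared with the same crop held in cold for 15 min. The comparison used 4 of the 10 arrays of the series, chosen by their labelled treatment: the varieties Shin-Hong and Man-Su at 60 min of cold, and the same varieties at 15 min of cold. Each 60 min array was paired with the 15 min array of its own variety. The 4 groups hold 1 array each, and no array labelled normal was used. The sources used here give neither the tissue nor the cold temperature, and say nothing of plant age or of pooling. Total RNA was labelled with Cy3 and hybridised to 1-colour NimbleGen oligonucleotide arrays, and 47548 cabbage features were read on each as log2 intensity.

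Plants perceive a drop in temperature within minutes, and calcium signals are among the first responses known. In the model plant Arabidopsis, genes for the CBF (DREB1) transcription factors are switched on early, and the cold-regulated genes they control, many of which encode protective proteins, follow later. A comparison of a later with an earlier cold sample therefore asks which transcripts change after the first wave has begun. No column of the files links a feature to a gene, and 0 IDs matched the gene table used here, so no feature could be placed in that pathway and no gene is named.

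A riser is here a feature at least 2-fold higher at 60 than at 15 min in each variety, and a faller one at least 2-fold lower in each. There were 118 risers, 0.248% of the features, and 15 fallers, 0.0315%. Risers were a median of 1.74 log2 units higher at 60 min in Shin-Hong and 1.33 in Man-Su, and fallers a median of 1.33 units lower in Shin-Hong (change of -1.33) and 1.18 lower in Man-Su (-1.18). Over all features the median change was 0.002 in Shin-Hong and -0.011 in Man-Su. The plot of each feature's change in the 2 varieties shows rises of up to 4.07 log2 units in Shin-Hong and 4.2 in Man-Su, and among the fallers changes down to -2.33 and -2.27.

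**Figure D1:**
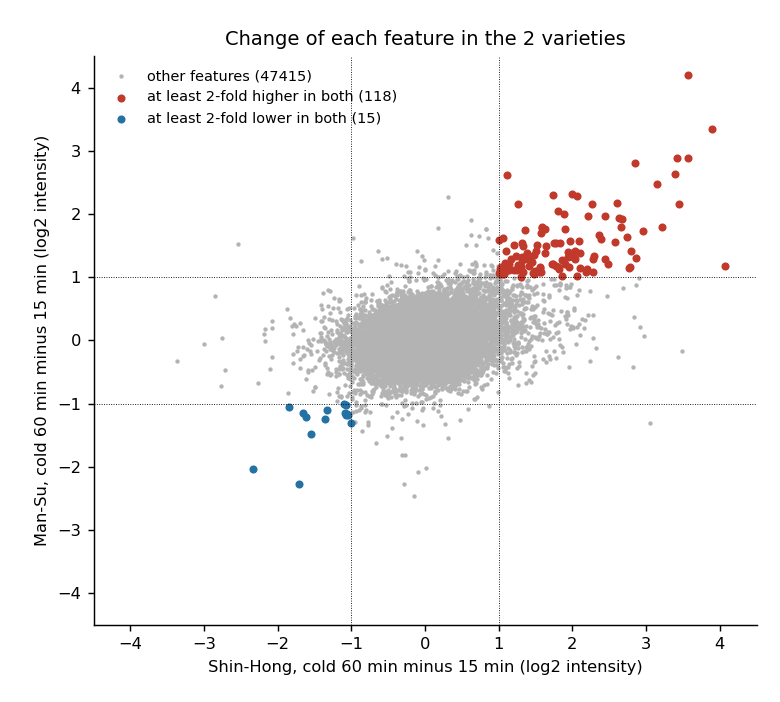
Change in log2 intensity, cold 60 min minus cold 15 min, in Shin-Hong (x axis) and Man-Su (y axis), 1 point per feature. Dotted lines mark 2-fold. The 118 risers (red) reach 4.07 log2 units in Shin-Hong and 4.2 in Man-Su, and the 15 fallers (blue) reach -2.33 and -2.27.

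The 4 arrays had median levels of 12.07 (Shin-Hong 60 min), 12.05 (Man-Su 60 min), 12.06 (Shin-Hong 15 min) and 12.04 log2 units (Man-Su 15 min). Over all features the 60 and 15 min arrays of a variety correlated at 0.983 in Shin-Hong and 0.991 in Man-Su, and arrays of different varieties among these 4 at 0.92 to 0.925, so the pairing by variety matched the data. The variety names used here are those of the sample source labels. The sample titles give the cold and the normal arrays of a variety different letters, so the names of the cold series may be exchanged. A change within a series does not depend on this, but every statement of which variety changed more does. The 6 control features averaged 8.235 log2 units at 60 min and 8.373 at 15 min in Shin-Hong, and 7.576 at 60 min and 7.768 at 15 min in Man-Su. The 4 arrays leave no degree of freedom to test their part in the changes below. In a fit of the 8 cold arrays, a term for their mean level moved the calls for 60 against 15 min to 15 higher and 1 lower, against 5 and 0 without it.

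The change was tested with limma over all 47548 features on these 4 arrays, with variety as a block and 1 residual degree of freedom. The varieties act as the samples of a time, and the spread may be partly technical. At a Benjamini-Hochberg adjusted p under 0.05, 455 features rose (0.957% of those tested) and 133 fell (0.28%), 1.24% in all. At an unadjusted p under 0.05 there were 3733 (7.85%). All 118 risers and all 15 fallers were called, and being past 2-fold in both varieties made a call likely. The 455 had a median change of 1.0 log2 units and the 133 one of -0.93. Of the 455, 230 were past 2-fold in 1 variety, and of the 133, 84 were.

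These calls leaned on the other features for their error. The prior taken from all features carried 19.4 degrees of freedom against 1 from the feature itself, and the median standard error of a change was 0.18 log2 units. When the spread came from the 8 cold arrays instead, 5 features rose and 0 fell, while 1397 had an unadjusted p under 0.05. All 5 were among the 455. Without variety in the fit 0 were called, with 289 at an unadjusted p under 0.05.

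Risers were numbered by the smaller of their 2 changes, among features brighter than every control feature at their brighter time. Riser 1, Brapa_ESTC006796, stood at 13.57 log2 units in Shin-Hong at 60 min, against 10.01 at 15 min. In Man-Su it stood at 14.27 at 60 min, against 10.07 at 15 min. Both 60 min arrays were far above both 15 min arrays. The mean change was 3.88 ± 0.19 log2 units (SE), a 14.8-fold rise with limma (adjusted p = 2.12e-10; 0.0232 with the spread of the 8 cold arrays).

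Riser 2, Brapa_ESTC010993, had 13.9 log2 units in Shin-Hong at 60 min, against 10.0 at 15 min, and 14.17 in Man-Su at 60 min, against 10.82 at 15 min. The times did not overlap. Its mean change was 3.62 ± 0.19 log2 units (SE), or 12.3-fold, with a limma adjusted p of 2.86e-10 (0.0232 with the 8 cold arrays). Through the series it climbed at each step in both varieties, with 10.0, 12.76, 13.9 and 14.2 log2 units at 15, 30, 60 and 120 min in Shin-Hong and 10.82, 13.17, 14.17 and 14.51 in Man-Su. Riser 1 climbed at each step in Shin-Hong, with 10.01, 12.46, 13.57 and 14.28. In Man-Su its values were 10.07, 13.01, 14.27 and 14.19, so the last step was flat.

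Risers 3, 4 and 7 moved almost as one. Riser 3 had 14.65 and 14.77 log2 units at 60 min in Shin-Hong and Man-Su, against 11.09 and 11.88 at 15 min. Riser 4 had 14.89 and 14.79 at 60 min, against 11.47 and 11.91 at 15 min. Riser 7 had 14.5 and 14.39 at 60 min, against 11.36 and 11.91 at 15 min. Their mean folds were 9.36, 8.89 and 7.02, and in each the varieties were closer to one another at 60 than at 15 min. Their ID numbers lie within 8 of one another. Whether their probes match related or shared sequence was not tested, so they are not counted as 3 independent cases. A further riser, with the ID number next to that of riser 7, was less alike in the varieties. It rose by 2.86 log2 units in Shin-Hong and 1.31 in Man-Su.

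Riser 5 was alike in both varieties, with 13.91 and 14.24 log2 units at 60 min in Shin-Hong and Man-Su, against 11.06 and 11.43 at 15 min, a mean rise of 7.08-fold (limma adjusted p = 4.64e-09; 0.0232 with the 8 cold arrays). Riser 6 had 13.07 and 12.92 at 60 min, against 9.68 and 10.28 at 15 min, a mean of 8.11-fold. Riser 9 had 12.05 and 11.37 at 60 min, against 8.6 and 9.21 at 15 min, a mean of 6.99-fold. In all 3 the 60 min arrays stood clear of the 15 min arrays.

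Among the 12 leading risers, riser 8 alone was lower at 120 than at 30 min in both varieties. It had 12.93 and 12.06 log2 units at 60 min in Shin-Hong and Man-Su, against 10.32 and 9.89 at 15 min. At 120 min it was back at 11.51 and 10.24, under its 11.75 and 11.83 at 30 min. Risers 4, 6 and 7 were also lower at 120 than at 60 min in both varieties, by less. Risers 10, 11 and 12 rose by means of 4.65-, 4.45- and 4.61-fold. The times did not overlap in any of the 12, and 7.52% of all features were separated upward. The 12 were chosen by the size of their rise in these arrays, which favours a clear gap and a small p. The 12 had limma adjusted p of 2.12e-10 to 3.64e-07 on the 4 arrays. With the spread of the 8 cold arrays 5 of the 12 were called, of 5 rises called among all 47548 features. Risers 4 and 7, not counted as independent cases, were among them. The adjusted p of the 12 then ran from 0.0232 to 0.64.

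**Figure D2:**
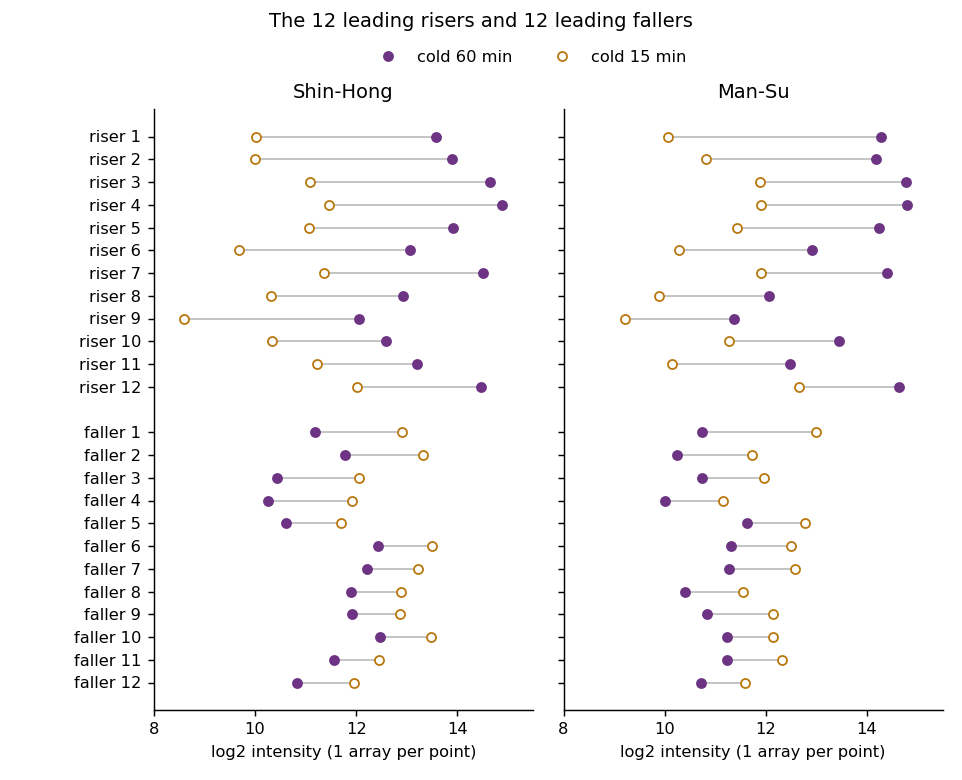
Log2 intensity of the 12 leading risers and the 12 leading fallers at cold 60 min (filled) and cold 15 min (open), with 1 array per point, in Shin-Hong (left) and Man-Su (right). The gaps of the risers span 3.91- to 18.4-fold and those of the fallers 1.85- to 4.81-fold.

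Fallers were numbered in the same way, without the 2-fold limit. Of the 12 numbered, 7 are among the 15 fallers defined above. Faller 1, Brapa_ESTC021327, had 11.19 log2 units in Shin-Hong at 60 min, against 12.9 at 15 min, and 10.73 in Man-Su at 60 min, against 13.0 at 15 min. Both 60 min arrays were below both 15 min arrays. It fell by 1.99 ± 0.19 log2 units (SE), or 3.97-fold, with a limma adjusted p of 1.83e-06 on the 4 arrays and 0.285 with the 8 cold arrays. Faller 2, Brapa_ESTC012066, had 11.77 in Shin-Hong at 60 min, against 13.33 at 15 min, and 10.25 in Man-Su at 60 min, against 11.72 at 15 min. It fell by about the same amount in both varieties, but Man-Su at 15 min was below Shin-Hong at 60 min, so the times overlapped.

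The other leading fallers moved less. Faller 3 had 10.44 and 10.74 log2 units at 60 min in Shin-Hong and Man-Su, against 12.05 and 11.96 at 15 min, a mean fall of 2.67-fold (limma adjusted p = 9.76e-05). Faller 4 had 10.26 and 10.01 at 60 min, against 11.91 and 11.16 at 15 min, a mean of 2.64-fold. Neither overlapped between times. Fallers 5 to 12 fell by means of 1.93- to 2.23-fold, 5 of the 12 leading fallers missed 2-fold in 1 or both varieties, and the times overlapped in 3 of the 12. Over all features 7.61% were separated downward, and the 12 were chosen by the size of their fall in these arrays. All 12 were called on the 4 arrays and 0 of 12 with the spread of the 8 cold arrays, where their adjusted p ran from 0.285 to 1.0.

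A faller too dim for the numbering had the largest change of the 15. It stood at 8.34 and 9.35 log2 units at 60 min in Shin-Hong and Man-Su, against 10.67 and 11.39 at 15 min. Its mean fall of 2.19 ± 0.18 log2 units (SE, limma adjusted p = 3.07e-07) was the single fall of at least 4-fold in both varieties, and 11 rises reached that size. It was chosen after its values were seen.

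Most risers and fallers separated the times whatever the variety. In 105 of 118 risers both 60 min arrays were above both 15 min arrays, and in 12 of 15 fallers both were below. Among all features 7.52% were separated upward and 7.61% downward. A member of either list had to differ in both varieties, so a high share was built into the choice. The members just inside and just outside the 2-fold limit were close: 1.001 and 1.592 log2 units in Shin-Hong and Man-Su for a riser just inside, and 0.993 and 1.181 for a feature just outside. For the fallers these were -1.008 and -1.311 inside, and -1.103 and -0.986 outside.

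Many members were dimmer than the brightest control feature at their low time, and few were under the random-sequence control. Of the risers, 0 were under the random-sequence control in either 60 min array and 1 was under it at 15 min (Man-Su). That riser had 8.01 and 5.73 log2 units at 60 min in Shin-Hong and Man-Su, against 5.73 and 4.65 at 15 min. The brightest control feature lay above 20 risers at 60 min and 85 (72.0%) at 15 min in Shin-Hong, against 35.8% and 39.8% of all features. In Man-Su it lay above 22 at 60 min and 66 (55.9%) at 15 min, against 28.5% and 34.2%. For the fallers it lay above 12 of 15 at 60 min and 6 at 15 min in Shin-Hong, and above 10 at 60 min and 7 at 15 min in Man-Su. No riser or faller was over 60000 intensity units, close to the top of the scale. Raising every value under the mean of the controls to that mean left 113 risers and 14 fallers.

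The changes were of unequal size in the varieties. The standard deviation of the change over all features was 0.37 log2 units in Shin-Hong and 0.26 in Man-Su. In Shin-Hong 555 features were at least 2-fold higher at 60 min (1.17%) and 294 at least 2-fold lower (0.618%). In Man-Su these were 193 (0.406%) and 63 (0.132%). The change was larger in Shin-Hong for 60.4% of all features, for 86 of the 118 risers (72.9%) and for 9 of the 15 fallers, the last being 60.0% and so close to the share over all features. With 1 array per group, a difference in size between the varieties could not be tested.

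The varieties overlapped more in what was higher at 60 min than in what was lower. The 118 risers made up 21.3% of the features 2-fold higher in Shin-Hong and 61.1% of those in Man-Su. The 15 fallers made up 5.1% of the features 2-fold lower in Shin-Hong and 23.8% of those in Man-Su. At 1.5-fold, 402 features were higher in both and 116 lower in both. At 3-fold 28 were higher in both and 2 lower in both. The lists of falls were shorter, with 0.618% of all features 2-fold lower in Shin-Hong and 0.132% in Man-Su, against 1.17% and 0.406% higher. Whether the overlap differs between directions, with the lengths of the lists allowed for, was not tested.

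Read in the other variety, the features 2-fold higher in Shin-Hong had a median change of 0.41 log2 units in Man-Su, and 459 of 555 (82.7%) were higher there too. The features 2-fold higher in Man-Su had a median change of 1.25 log2 units in Shin-Hong, as large as their own median of 1.22, and 172 of 193 (89.1%) were higher there. For the falls, 197 of the 294 in Shin-Hong (67.0%) were lower in Man-Su, with a median of -0.12, and 52 of the 63 in Man-Su (82.5%) were lower in Shin-Hong, with a median of -0.58. Of the features 2-fold higher in Man-Su, 79.3% were at least 1.5-fold higher in Shin-Hong. Of those 2-fold lower in Shin-Hong, 12.2% were at least 1.5-fold lower in Man-Su.

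Agreement in direction depended on the size of the change. Over all features 50.9% moved the same way in both varieties. Features under 0.25 log2 units higher in Shin-Hong were higher in Man-Su in 46.2% of cases, those 0.5 to 1 unit higher in 57.6%, those 1 to 2 units higher in 81.6% and those 2 or more units higher in 90.1% (64 of 71). Of the 18 features 2 or more units higher in Man-Su, 18 were higher in Shin-Hong. For falls in Shin-Hong the share was 67.6% at 1 to 2 units and 56.2% (9 of 16) at 2 or more.

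**Figure D3:**
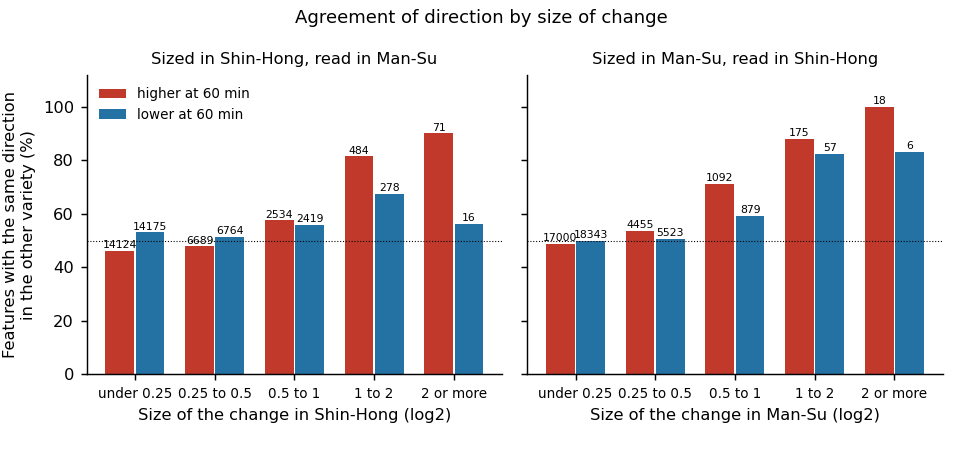
Share of features with the same direction in the other variety (y axis, percent), by size of the 60 minus 15 min change (x axis, log2) in Shin-Hong (left) or Man-Su (right), with the number of features above each bar and a dotted line at 50%. Rises of 2 or more log2 units agreed in 90.1% when sized in Shin-Hong and in 18 of 18 features when sized in Man-Su.

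Of the 135 features past 2-fold in both varieties, 133 went the same way (98.5%). The features that went opposite ways were 1 higher in Shin-Hong and lower in Man-Su, and 1 the reverse. At 1.5-fold 51 of 569 went opposite ways, 23 higher and 28 lower in Shin-Hong, and at 3-fold 0 of 30 did.

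The changes in Shin-Hong and Man-Su correlated at r = 0.21 across the 47548 features. This is a description, as features of 1 array are no replicates of one another. The changes in the 2 varieties share their probes but no array. Whether the 2 series were normalized in 1 run is not stated. The rank correlation was 0.06, so the relation lay mainly in the features with large changes. With the features cut into 10 groups of like size by mean level, r was 0.03 in the dimmest group, 0.31 in group 6 and 0.21 in the brightest. In the dimmest group the median change was 0.05 log2 units in Shin-Hong and -0.09 in Man-Su.

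**Figure D4:**
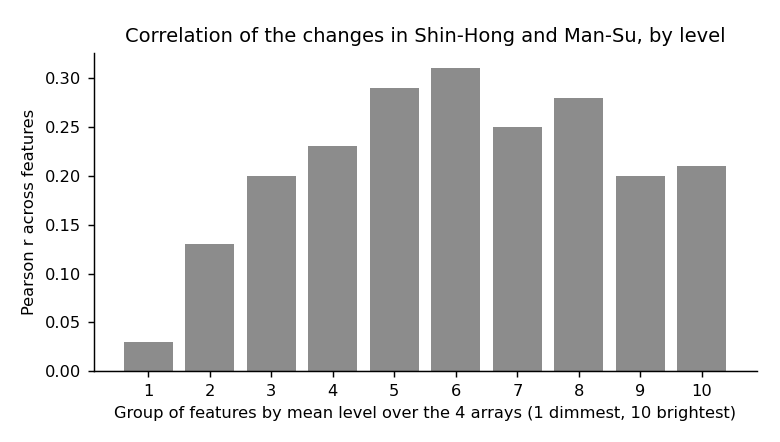
Pearson correlation, across features, of the 60 minus 15 min changes in Shin-Hong and Man-Su (y axis), within 10 groups of features by mean log2 level over the 4 arrays (x axis, 1 the dimmest). It runs from 0.03 in group 1 to 0.31 in group 6.

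The correlation was no higher at the matched times than at some others. The 60 minus 15 min change in Man-Su correlated at 0.21 with the same change in Shin-Hong, at 0.3 with Shin-Hong 120 minus 15 min and at 0.24 with Shin-Hong 120 minus 30 min. The 60 minus 15 min change in Shin-Hong correlated at 0.21 with Man-Su 60 minus 15, 120 minus 15 and 120 minus 30 min alike, and at -0.04 with Man-Su 30 minus 15 min. None of these pairs shares an array between the varieties. At other matched steps the varieties correlated at 0.3 for 120 minus 15 min, 0.09 for 120 minus 30 min, 0.06 for 120 minus 60 min, -0.04 for 60 minus 30 min and -0.24 for 30 minus 15 min.

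The arrays at 30 and 120 min took no part in choosing the risers and fallers. At 120 min, 73 of the 118 risers (61.9%) were above their 30 min level in both varieties, against 28.0% of all features. In Shin-Hong alone 91 were above it (77.1%, against 48.2% of all features) and in Man-Su alone 76 (64.4%, against 53.1%). Their median 120 minus 30 min change was 0.77 log2 units in Shin-Hong and 0.28 in Man-Su, and over all features it was -0.02 and 0.02. Of the 15 fallers, 13 (86.7%) were lower at 120 than at 30 min in both, against 26.7% of all features, with medians of -1.08 and -1.21. Risers at least 2-fold higher at 120 than at 30 min in both varieties numbered 24, of 180 such features in all (0.379%). Fallers at least 2-fold lower numbered 6 of 233 (0.49%).

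Limma on the 30 and 120 min arrays called 0 features at an adjusted p under 0.05 (0.0%). With the spread of the 8 cold arrays it called 1. At an unadjusted p under 0.05 there were 3269 (6.88%): 1561 features were higher at 120 min (3.28%), 47 of them risers, and 1708 were lower (3.59%), 9 of them fallers. Both pairs hold an array that resembles the other variety more than the rest of its own series does. The 30 min array of Man-Su correlated at 0.945 to 0.948 with Shin-Hong at 15, 30 and 60 min, where the other Man-Su arrays had 0.92 to 0.928. The 120 min array of Shin-Hong correlated at 0.937 to 0.951 with Man-Su at 15, 60 and 120 min. Their part in these counts was not tested.

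The path to 60 min looked different in the varieties. Risers had medians of 11.02, 11.78, 12.86 and 12.42 log2 units at 15, 30, 60 and 120 min in Shin-Hong, and of 10.72, 11.98, 12.34 and 12.34 in Man-Su. By 30 min the median riser had covered 45.6% of its 15 to 60 min change in Shin-Hong and 77.3% in Man-Su, and 55 and 108 of the 118 were past the midpoint. Over all features those medians were 23.6% and 55.9%, and 17102 and 24532 of the 47548 were past the midpoint. The all-feature median was thus also higher in Man-Su. However, 87.8% of features in Shin-Hong and 95.3% in Man-Su changed by under 0.5 log2 units between 15 and 60 min. A share of so small a change says little of a course. Whether the higher value in Man-Su is particular to the risers was not tested. The 15 and 60 min arrays behind these values also chose the risers, so the values depend in part on that choice. The 30 min array of Man-Su is also the one that leans to Shin-Hong. At 60 min 70.3% of risers were brighter in Shin-Hong than in Man-Su, against 46.4% of all features, and at 15 min 56.8% were, against 46.0%, in arrays that also chose the risers. In the mean of the 30 and 120 min arrays, which did not choose them, 52.5% were, against 46.2% of all features. The part of the lean of the Man-Su 30 min array in the early rise was not tested.

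Fallers showed the opposite order. Their medians were 11.7, 11.34, 10.44 and 10.16 log2 units at 15, 30, 60 and 120 min in Shin-Hong and 11.16, 10.84, 9.691 and 9.659 in Man-Su. By 30 min the median faller had covered 34.7% of its change in Shin-Hong and 11.5% in Man-Su, with 4 and 0 of the 15 past the midpoint. Over all features the medians were 23.6% and 55.9%, with 17102 and 24532 of the 47548 past the midpoint. Most of those features changed little, so here too these shares say little of a course. The 15 and 60 min arrays behind these values also chose the fallers, so the values depend in part on that choice. Between 30 and 60 min the median change of the fallers was -0.81 in Shin-Hong and -1.12 in Man-Su. The difference in course between the varieties was not tested for either list.

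**Figure D5:**
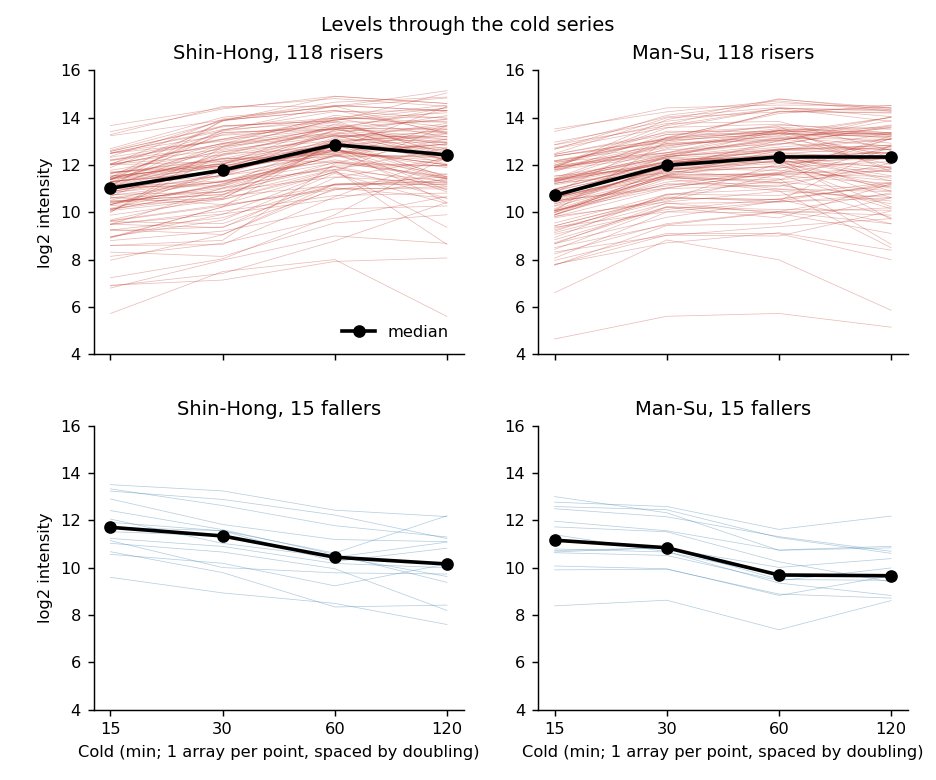
Log2 intensity of the 118 risers (top) and 15 fallers (bottom) at 15, 30, 60 and 120 min of cold in Shin-Hong (left) and Man-Su (right), with a thin line per feature and the median in black. The median of the risers reaches 12.86 in Shin-Hong and 12.34 in Man-Su at 60 min, and that of the fallers 10.44 and 9.691.

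After 60 min the risers went different ways. At 120 min 47 of the 118 (39.8%) were below their 60 min level in both varieties, against 25.4% of all features. Above it in both were 27 (22.9%), close to the 23.8% of all features. Over the 118 the median 120 minus 60 min change was -0.14 log2 units in Shin-Hong and -0.11 in Man-Su. At least 2-fold back down in both were 11 risers, of 92 such features in all, and at least 2-fold further up in both were 2 of 84. At 120 min 106 of the 118 (89.8%) were still above their 15 min level in both varieties, against 27.1% of all features. These readings share the 60 or the 15 min arrays with the choice of risers. By itself a choice of high 60 min values favours a return after 60 min. A choice of low 15 min values likewise favours a 120 min level above that of 15 min.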

How the data were processed

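Per the submitters' processing notes, the authors made the values with RMA, a method that removes background, brings arrays to a common scale and gives 1 value per feature from its probes. The deposited files hold them as intensity on a linear scale; no source used here names the RMA software or says which arrays were normalized in 1 run. Per the file headers, a second column holds another sort of value, the probes of each feature; 46793 of 47548 features had 7. The 5 barcode controls and the random-sequence control were left out of tests and read as background. The number of arrays limits the precision.

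The intensities were taken to log2 as deposited, with no further normalization, filter or pseudocount. The test was limma 3.58.1 in R 4.3.3 (lmFit, eBayes, Benjamini-Hochberg over all features). A run on simulated data used limma's own spreads and the same change in both varieties, so it cannot judge the calls made here. The limma test compared 60 with 15 min, and 120 with 30 min, with variety as a block. The block stands in place of replicate numbers, which the labels do not give. Counts and correlations were computed in Python 3.11.15. The features numbered in the text were the 12 with the largest change in each direction in the variety where it was smaller, among features above the brightest control at their brighter time, with values under the random-sequence control raised to it. For opposite changes the rule took 3 in each direction. IDs are printed for 2 features per direction. Members, lists and tests were chosen with earlier results of these data known. The gene lists and tissue markers planned for this comparison could not be read, since the files' gene column was empty on every array. Alternatives were 2 quantile normalizations, median centring, floors and filters for dim signal, other folds, other priors and the spread of the 8 cold arrays.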

Additional observations from a re-analysis of the deposited data

Results flagged for a closer look

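Features at least 2-fold apart in opposite directions in the varieties were flagged, since every array pair of one variety moved one way and that of the other the opposite way; the difference itself was not tested. There was 1 such feature higher at 60 min in Shin-Hong and lower in Man-Su. It had 12.8 log2 units in Shin-Hong at 60 min, against 9.74 at 15 min, and 10.5 in Man-Su at 60 min, against 11.8 at 15 min. Its mean change was 0.88 ± 0.51 log2 units (SE, limma adjusted p = 0.805). There was 1 feature lower at 60 min in Shin-Hong and higher in Man-Su, with 3.99 log2 units in Shin-Hong at 60 min, against 6.53 at 15 min, and 10.59 in Man-Su at 60 min, against 9.07 at 15 min. Its Shin-Hong value at 60 min lay under the random-sequence control, and raised to that control the change was -1.01 in place of -2.54. Among brighter features, the next opposite changes were 0.68 and -0.93 log2 units in Shin-Hong and Man-Su in one direction, and -0.9 and 0.87 in the other.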

How the results depend on the processing

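Of limma's 455 rises and 133 falls on the 4 arrays, the 8 cold arrays left 5 and 0, and a control-level term added to them 15 and 1. The fit with no replicate block (variety left out) gave 0 and 0. An intensity trend in the prior gave 840 and 310. Quantile normalization over all 10 arrays gave 319 and 71. The 8-array fit gave 6 and 0 less Man-Su cold 30 min and 0 and 0 less Shin-Hong cold 120 min, both chosen after seeing the data. Leaving out any of the 15 or 60 min arrays from it gave 0 in both directions, with 1 lone array then assumed to vary like the others. Quantile normalization over the 4 arrays, median centring and the filters on dim signal and probe number kept both counts within 1.5 times. The 30 numbered features include 6 opposite ones that were not called on the 4 arrays. Of the 24 others, 19 lost their call with the 8 cold arrays and 24 with no replicate block. All 30 kept direction. With the 8 cold arrays or no replicate block the design fixes the same change, so direction could not alter there. For 120 minus 30 min, limma called 0 in both directions, 1 higher with the 8 cold arrays and 0 with no replicate block.

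Risers numbered 402, 28 and 11 and fallers 116, 2 and 1 at 1.5-, 3- and 4-fold. With 1 variety left out, features past 2-fold numbered 193 to 555 for rises and 63 to 294 for falls. Other normalizations, floors and filters gave 113 to 122 risers and 14 or 15 fallers. The correlation of 0.21 was 0.06 by rank and 0.23 without the dimmest of 10 groups by level. The same-direction share of 50.9% was 63.2%, 77.0% and 84.8% for features at least 1.5-, 2- and 4-fold apart in either variety. The share of risers higher at 120 than at 30 min was 64.4% to 77.1% and that of fallers lower 86.7% to 100% in a variety alone. The cause of the moved counts was not tested. With 1 array per group, the number of arrays limits every error given here.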

Other observations

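Some risers had ID numbers close to one another. Of the 118, 23 (19.5%) had another riser within 10 ID numbers, in 10 groups, the largest of 4; the share to be expected of a list of this size was not computed. Over all features, the mean 60 minus 15 min change correlated at 0.05 between features with consecutive ID numbers (43930 pairs) and at 0.0 between features 1000 places apart. What the order of the IDs stands for is not given in the sources used here.

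A few risers moved by very unequal amounts. The largest rise in Shin-Hong, 4.07 log2 units, belonged to a feature with 13.02 log2 units at 60 min, against 8.95 at 15 min. In Man-Su the same feature had 11.09 at 60 min, against 9.92 at 15 min, a rise of 1.17. Another riser gained 1.11 log2 units in Shin-Hong, with 12.38 at 60 min against 11.27 at 15 min, and 2.62 in Man-Su, with 12.61 at 60 min against 9.99 at 15 min. Both were chosen after their values were seen, and the difference between the varieties was not tested.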
